A study of Homo sapiens with 5 samples.

Results

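The genes described here encode the transport machinery and gate of the primary cilium: 50 listed symbols, of which 48 had a row among the 13638 rows of the count table and all 48 passed the filter on low counts. They were chosen by symbol from knowledge of the intraflagellar transport (IFT) complexes, the BBSome and the transition zone, by someone who had seen the genotype comparison of these same libraries. The values of the knockout against the wild type are therefore a description, and no support for anything is drawn from them. IFT52 and CC2D2A were not analysed here. TTC30A and B9D2 passed the filter through the knockout libraries only, since at least 1 of their wild-type libraries was below its level of 0.59 CPM (counts relative to the library total). TTC30B was above that level in both wild-type libraries. Its 13 counts there were under the total count that the filter also requires, and the knockout libraries supplied the rest.

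Ribosome footprints, the pieces of mRNA that translating ribosomes protect from nuclease, were counted in 5 libraries of HAP1, a near-haploid human cell line that came from leukaemia cells and grows attached to the dish. The wild-type group held 2 libraries of unmodified HAP1 cells, and the other group held 3 libraries of HAP1 cells with a knockout of ZCCHC4, the methyltransferase that the series title links to a methylated adenosine of 28S ribosomal RNA. No treatment, time point or clone is given for either group, so whether the knockout libraries came from 1 clone, and whether libraries of a group came from separate cultures, is unknown. The spread between libraries may then be technical. Footprint counts follow both the amount of an mRNA and how densely ribosomes occupy it, and no separate mRNA measurement was used. The labels name polyA RNA as the molecule while their protocol describes nuclease-protected fragments, and the counts were read as footprints on the strength of the protocol.

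Wild-type libraries held 4887380 and 5302160 counts and knockout libraries held 16940732 to 31557573, so depth went with genotype. The wild-type libraries were close to sampling noise of each other (chi-square 1.14 per degree of freedom), and knockout libraries 1 and 3 were nearer to each other (2.97) than either was to knockout library 2 (27.7 and 24.6). ZCCHC4 itself had 16 and 13.3 CPM (the count relative to a library total adjusted by the trimmed mean of M-values) in wild type and 3.85, 3.41 and 4.98 in knockout libraries 1 to 3. It fell by 1.82 ± 0.20 in log2 units (edgeR quasi-likelihood test, adjusted p = 7.27e-05), and 28.3% of its wild-type level remained. Of 12 multiciliated-cell markers with a row, 8 were at or under 3 counts in both wild-type libraries. FOXJ1, the master regulator of motile cilia, had no count in 4 of the 5 libraries and 2 counts in knockout library 1. The list summed to 10.2 and 10.6 CPM in wild type and to 17, 19.1 and 18.1 CPM in the knockout, where PIFO and DNAH11 were called higher. In the wild-type libraries PIFO had 2 and 6 counts and DNAH11 had 0 and 0. Both thus passed the filter through the knockout libraries, where they were higher. Their part in the results below was not tested. Of 5 blood-cell markers with a row, 4 were at or under 3 counts in both wild-type libraries, and TAL1 was called lower. Of 3 tested markers of fibroblast-like adherent cells, VIM rose from 132 to 511 CPM, whereas FN1 fell from 164 to 68.6 CPM and COL1A1 from 17.1 to 9.74 CPM. Of 4 epithelial markers with a row, 2 were at or under 3 counts in both wild-type libraries. EPCAM was called higher, from 1.35 to 4.72 CPM, and KRT18 was not called, at 148 CPM in wild type and 138 in the knockout.

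As background, a primary cilium is a single antenna of microtubules covered by membrane, grown from the mother centriole of a resting cell. Kinesin-2 carries trains made of the IFT-B and IFT-A complexes to the tip, and dynein-2 carries them back. The BBSome rides on these trains and removes membrane proteins such as receptors, and the transition zone at the base works as a gate. Many promoters of these genes are read by RFX transcription factors through a DNA motif called the X-box.

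The promoters of the genes were compared first because their letters were not read when the members were picked. The X-box is already known from promoters of ciliary genes. A higher share among genes picked as ciliary is therefore no independent finding. RefSeq promoter windows (GRCh38.p14, 250 bases before to 50 after the transcript start) were found for 39 of the 48 members. The remaining 9, namely BBS9, HSPB11, IFT22, TCTN2, TMEM67, TTC26, TTC30A, TTC30B and WDR35, had no window matched by symbol. Both strands were searched for a pair of patterns: the core motif GTTGCC, and a longer X-box form made of GTTNCC, a gap of 2 or 3 bases and GNAAC. A window can match both. The core motif was present in 19 of 39 member windows (48.7%), against 1326 of 10420 windows of all genes of the table (12.7%). The longer form was present in 4 of 39 (10.3%), against 148 of 10420 (1.42%). A match is a run of letters and not evidence that a factor binds there.

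**Figure D1:**
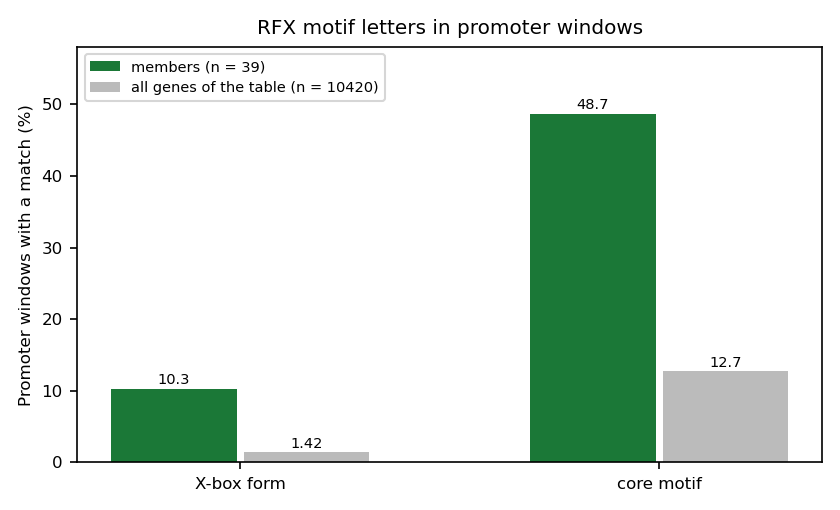
Share of promoter windows, in percent, that hold the X-box form or the core motif, for members (green bars, 39 windows) and for all genes of the table with a window (grey bars, 10420 windows). The core motif was present in 48.7% of member windows and in 12.7% of all windows, and the X-box form in 10.3% and 1.42%.

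The core motif was not evenly spread over the complexes. All 5 windows of IFT-B core members and both windows of dynein-2 members held it, while 1 of 5 IFT-A windows and 1 of 6 peripheral IFT-B windows did. The BBSome had it in 3 of 7 windows and the transition zone in 5 of 10. The IFT-B core has 10 members with a row, and its members HSPB11, IFT22, TTC26, TTC30A and TTC30B had no window to search. The IFT-B core and dynein-2 stretches are shown because every matched member of these complexes held the motif, which stands in capitals, as GTTGCC or as its reverse complement GGCAAC. Each is 30 bases long and is read 5′ to 3′ on the strand of its gene.
IFT27 (chr22:36776143-36776172, minus strand): ggagcttttggcGGCAACcaatcgagggtc
IFT46 (chr11:118566110-118566139, minus strand): tttatcagccgcGTTGCCacccatagccgc
IFT74 (chr9:26946861-26946890, plus strand): caacacagccggGGCAACccgactcccagc
IFT81 (chr12:110124345-110124374, plus strand): ggcctagcaaccGTTGCCaaggagctcgac
IFT88 (chr13:20567161-20567190, plus strand): gattccgcgcttGGCAACggctcggcgtcg
DYNC2H1 (chr11:103109429-103109458, plus strand): gcgactacccctGGCAACcgcgaagctctg
DYNC2LI1 (chr2:43774019-43774048, plus strand): cgtcgctcccatGGCAACccagaaggcctc

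The 4 windows with the longer X-box form belonged to ARL6, the small GTPase that brings the BBSome to membranes, and to the transition zone genes TCTN1, TCTN3 and B9D2. They are shown because they hold the motif on which RFX factors are known to act, with the whole match in capitals.
ARL6 (chr3:97764726-97764755, plus strand): aagctcctGTTGCCAAGGGAACggtgcctg
TCTN1 (chr12:110614121-110614150, plus strand): ctgtcgcgGTTGCCGGGCAACgcgctgtcc
TCTN3 (chr10:95694121-95694150, minus strand): cactgacgGTTGCCAGGCAACggaggcacg
B9D2 (chr19:41364136-41364165, minus strand): agcctgctGTTGCCCCAGCAACaaccacgg
None of these 4 genes was called in the genotype comparison below. By call, the core motif was present in 1 of 4 windows of members called higher, 8 of 18 of those called lower and 10 of 17 of those not called.

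In that comparison a gene is called at an adjusted p under 0.05 in an edgeR fit over all 11205 genes tested. Of the 48 members, 28 were called (58.3%), against 60.0% of all genes tested. They leaned to the lower side: 21 were called lower in the knockout (43.8%, against 29.8% of all genes) and 7 higher (14.6%, against 30.2%). The median log2 fold change was -0.41 over the members and 0.02 over all genes tested. In 29 members all knockout libraries were below both wild-type libraries, against 37.9% of all genes, and in 10 all were above, against 38.5%. These shares describe genes chosen with the comparison known. The counts of single complexes that follow are to be read against the same shares of all genes. Scaled by library totals, 28 members were called lower and 4 higher, 62.1% of all genes were called, and the median of all genes moved by -0.22. Leaving out wild-type library 1, or wild-type library 2, left 15 called lower and 4 higher, in fits that called 41.4% and 42.4% of all genes. With the knockout libraries thinned to the smaller wild-type total, 20 were called lower and 6 higher, and 57.6% of all genes were called. Adjusted p-values of the called members ran from 5.81e-06 (IFT172) to 0.033 (IFT88).

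**Figure D2:**
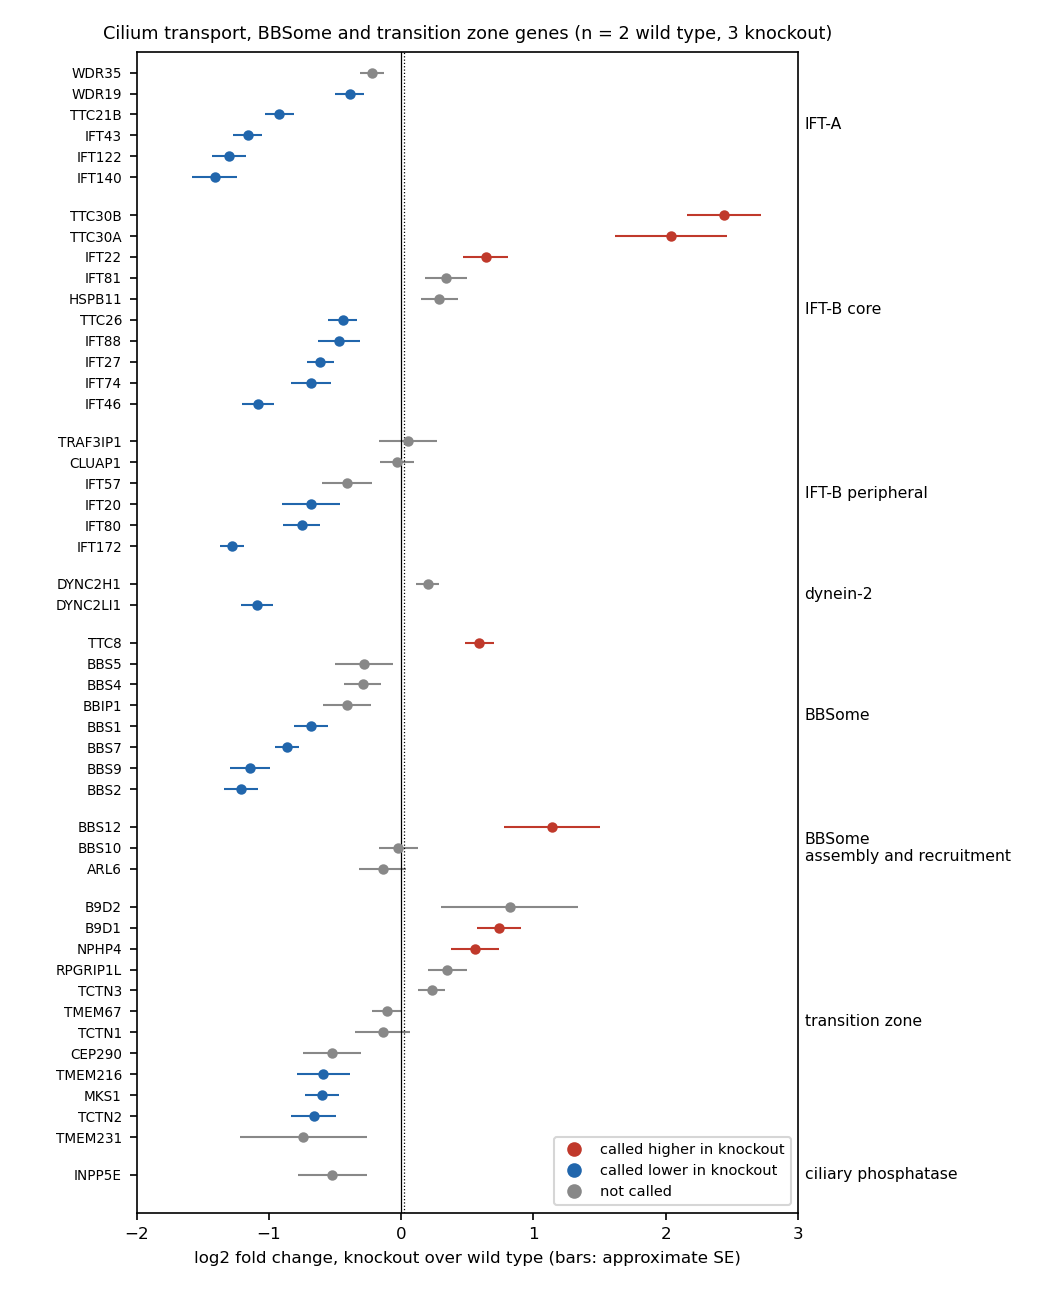
Log2 fold change of the knockout over the wild type for the 48 members, ordered within each complex, with bars of 1 approximate SE, the solid line at 0 and the dotted line at the median of all genes tested (0.02). All 6 IFT-A points lie left of 0, from -1.41 (IFT140) to -0.22 (WDR35), and TTC30B (2.44) and TTC30A (2.04) lie farthest right.

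IFT-A, the complex that retrograde trains need and that lets many membrane receptors enter the cilium, was the most one-sided group. Of its 6 members 5 were called lower (83.3%, against 29.8% of all genes tested) and none higher (against 30.2%). The median log2 fold change was -1.04. In each of the 6, every knockout library was below both wild-type libraries, as in 37.9% of all genes tested. The summed level of the complex was 275 and 286 CPM in wild type and 175, 167 and 175 CPM in the knockout.

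IFT140, a large scaffold subunit, had 31.2 and 27.4 CPM in wild type and 9.31, 13.6 and 10.6 CPM in the knockout. It fell by 1.41 ± 0.17 in log2 units, with no overlap between the groups. IFT122, another scaffold of the complex core, had 27.9 and 31.9 CPM against 11.3, 12.9 and 12.4. It fell by 1.30 ± 0.13, and its knockout libraries lay close together and far below the wild type. IFT43, the smallest subunit, had 46.4 and 47.4 CPM against 19.5, 20.1 and 23.1, a fall of 1.16 ± 0.11. Per kb of coding sequence IFT43 stood highest in the complex, at 75.2 CPM per kb in wild type and 33.5 in the knockout. TTC21B (also IFT139) followed with a log2 fold change of -0.92, and WDR19 (IFT144) with -0.39. WDR35 (IFT121), at -0.22 ± 0.09, was not called, although its libraries did not overlap either. The call of WDR19 was lost in 5 of 15 alternative settings, among them leaving out either wild-type library, and the other 4 kept theirs in all 15.

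**Figure D3:**
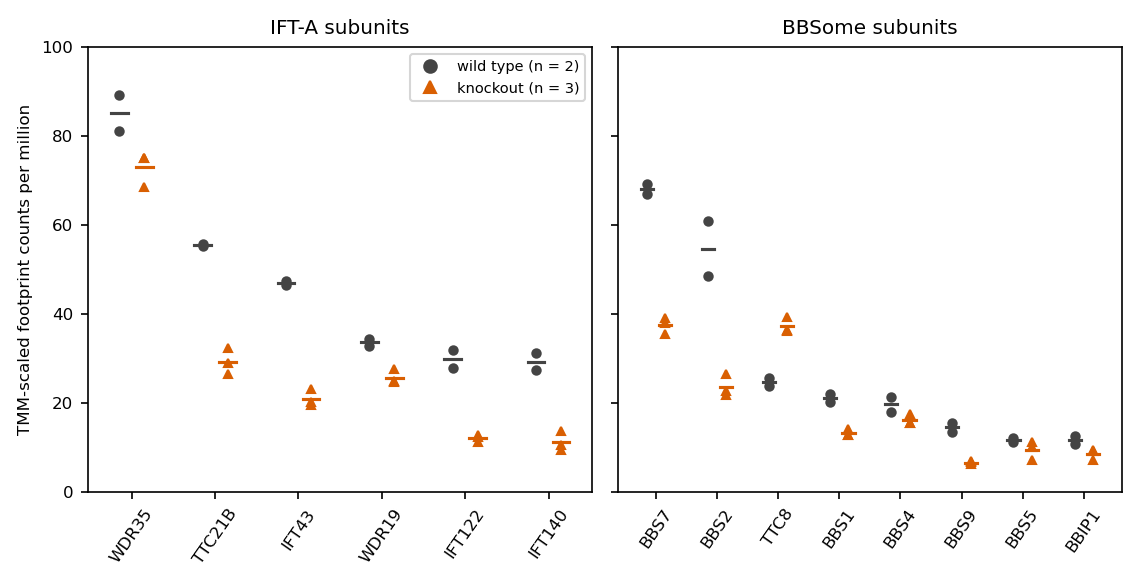
Footprint level (CPM) of each IFT-A subunit (left) and BBSome subunit (right) in the wild-type libraries (grey circles, n = 2) and knockout libraries (orange triangles, n = 3), with short lines at the group means. Each IFT-A gene is lower in every knockout library, as is each BBSome gene except TTC8, which rises from 24.7 to 37.2 CPM on average.

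IFT-B, the larger complex that binds kinesin-2 and carries tubulin, moved in both directions. In its core, which forms the stable heart of the complex, 5 of 10 members were called lower and 3 higher, against 29.8% and 30.2% of all genes tested. The median was -0.08, and its sign turned without wild-type library 2 (0.01) or knockout library 2 (0.03). It was -0.30 under library totals and -0.52 among members with a mean count of at least 50. Its peripheral part, which docks onto the core, had 3 of 6 called lower and none higher, with a median of -0.55. The peripheral genes summed to 199 and 192 CPM in wild type and 124, 107 and 122 CPM in the knockout. The core summed to 281 and 300 CPM against 272, 217 and 265.

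Among peripheral subunits IFT172, the longest IFT-B protein, had 99.4 and 103 CPM in wild type and 39.4, 44.9 and 41.2 CPM in the knockout. It fell by 1.28 ± 0.09, the largest fall among the peripheral genes. IFT80 had 16.7 and 19.2 CPM against 10.9, 9.79 and 11.2, a fall of 0.75 ± 0.14. IFT20, the subunit also found at the Golgi, had 11.4 and 10.6 CPM against 8.47, 5.27 and 6.60 and fell by 0.68 ± 0.22. It stood highest of the peripheral genes per kb of coding sequence, at 27.8 CPM per kb in wild type. Its knockout libraries ranged from 5.27 to 8.47 CPM, and its call was lost without either wild-type library and when knockout libraries were thinned to wild-type depth. The row of IFT80 shares 1953 exon bases with AC079594.2, a gene on the same strand, so its reads cannot be assigned with certainty. IFT57 (-0.41), CLUAP1 (-0.03) and TRAF3IP1 (0.05) were not called. IFT20 also shares 357 exon bases with TMEM97 on the opposite strand, and whether counting used strand is not given in the sources used here.

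In the core, IFT46 had 33.1 and 34.0 CPM in wild type and 16.6, 14.0 and 16.6 CPM in the knockout, a fall of 1.08 ± 0.12. IFT74 (-0.68), IFT27 (-0.61), IFT88 (-0.47) and TTC26 (-0.44) were also called lower. IFT27, a small GTPase that takes part in export of the BBSome, and IFT46 kept their calls in all 15 alternatives, and the other three lost theirs in at least 1 that left out a wild-type library. IFT22, the other small GTPase of the complex, was called higher, from 10.7 to 16.6 CPM on average, and lost the call under library-total scaling and without either wild-type library. HSPB11 (IFT25), highest of the core per kb at 110 CPM per kb in wild type and 133 in the knockout, was not called. It had 45.2 and 49.5 CPM in wild type and 65.8, 47.4 and 59.1 CPM in the knockout, so the groups overlapped. IFT81 (0.34) was not called either, and the groups overlapped there too.

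TTC30A and TTC30B encode near-identical copies of IFT70, a core subunit, and had the largest rises of all 48 genes. TTC30B had 7 and 6 counts in wild type and 160, 113 and 185 counts in the knockout, or 1.21 and 1.12 CPM against 5.87, 7.0 and 6.26 CPM. TTC30A had 2 and 6 counts in wild type and 80, 46 and 92 counts in the knockout, or 0.345 and 1.12 CPM against 2.93, 2.85 and 3.12 CPM. In neither gene did the groups overlap. From summed counts the knockout-to-wild-type ratio was 5.39 for TTC30B (exact 95% binomial interval 3.12 to 10.2) and 4.17 for TTC30A (2.08 to 9.77), intervals that cover counting error only. Both calls held in every alternative that gave a value, but the log2 fold change of TTC30A, which passed the filter through the knockout libraries, was 1.40 without wild-type library 1 and 3.09 without wild-type library 2. That of TTC30B, whose total count met the filter only with the knockout libraries, stayed between 2.22 and 2.53. The level stayed low in both genotypes, at 3.20 CPM per kb for TTC30B and 1.49 CPM per kb for TTC30A in the knockout, below every other IFT-B subunit.

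Both copies lie on chromosome 2 and have coding sequences of 1995 nt, which differ at 80 bases (96% identical). Of all 30-base windows of TTC30A, 905 of 1966 (46.0%) also occur in TTC30B, so a footprint from such a window could belong to either copy, and how shared reads were counted is not given. The longest identical stretch is 272 nt. Coding bases 1791 to 1850 are shown because 10 of the 80 differences, in capitals, fall there, so that footprints from this stretch can tell the copies apart.
TTC30A: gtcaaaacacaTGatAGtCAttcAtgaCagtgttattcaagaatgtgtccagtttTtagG
TTC30B: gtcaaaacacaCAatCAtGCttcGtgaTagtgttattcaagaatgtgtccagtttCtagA
The transcript sequences are those of GENCODE release 29, and each rise may hold footprints of the other copy. On the opposite strand, exons of TTC30A share 505 bases with AC073834.1 and those of TTC30B share 220 with the protein-coding gene AGPS. Reads from these bases cannot be told apart without strand.

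Dynein-2, the motor of retrograde transport, had 2 listed members that differed in direction. DYNC2LI1, its light intermediate chain, had 28.8 and 25.8 CPM in wild type and 13.2, 12.5 and 12.7 CPM in the knockout. It fell by 1.09 ± 0.12, kept its call in all 15 alternatives, and was the higher of the pair per kb in both genotypes. DYNC2H1, the heavy chain, had 114 and 98.2 CPM in wild type and 129, 117 and 120 CPM in the knockout. It was not called (log2 fold change 0.20 ± 0.09), although its knockout libraries were all above the wild-type ones.

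The BBSome, the coat of 8 subunits that carries membrane proteins out of the cilium, had 4 members called lower and 1 higher. These are 50.0% and 12.5%, against 29.8% and 30.2% of all genes tested. The median log2 fold change was -0.55. In 7 of the 8 every knockout library was lower than both wild-type libraries (87.5%, against 37.9% of all genes tested). Summed levels were 220 and 232 CPM in wild type and 158, 145 and 154 CPM in the knockout.

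BBS2 had 48.5 and 60.9 CPM in wild type and 26.4, 22.7 and 21.8 CPM in the knockout, a fall of 1.21 ± 0.13. BBS9 had 13.5 and 15.5 CPM against 6.63, 6.88 and 6.23, a fall of 1.14 ± 0.15. BBS7 had 66.9 and 69.1 CPM against 39.1, 35.5 and 37.9, a fall of 0.86 ± 0.09. These 3 subunits have related folds and sit together in the complex. BBS1, the subunit that contacts ARL6, fell by 0.68 ± 0.13, though its row shares 3311 exon bases with a read-through gene on the same strand. All 4 of these calls held in all 15 alternatives. BBS4 (-0.29), BBS5 (-0.28) and BBIP1 (-0.41) were not called. BBIP1, the smallest subunit, had 10.7 and 12.5 CPM against 9.49, 7.19 and 9.18, and stood highest of the BBSome per kb, at 55.2 CPM per kb in wild type and 41.0 in the knockout.

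TTC8 (BBS8) was the exception. It had 25.7 and 23.7 CPM in wild type and 36.3, 36.1 and 39.4 CPM in the knockout, and it rose by 0.59 ± 0.11 on the log2 scale. Its call held in all 15 alternatives. In wild type BBS2 and TTC8 stood at 25.3 and 16.3 CPM per kb of coding sequence, and in the knockout at 10.9 and 24.6, so their order was reversed. TTC8 was singled out after its values were seen.

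Of the genes that assemble or recruit the BBSome, BBS12, a chaperonin-like assembly factor, was called higher and the other two were not called. BBS12 had 1.55 and 1.12 CPM in wild type (9 and 6 counts) and 3.52, 2.42 and 2.84 CPM in the knockout. The ratio of summed counts was 2.23 (exact 95% binomial interval 1.32 to 4.06), and its call was lost in 6 of 14 alternatives, including DESeq2, library-total scaling and leaving out either wild-type library. ARL6, highest of this group per kb in both genotypes, had 8.28 and 8.03 CPM against 7.70, 6.32 and 7.96 (log2 fold change -0.14 ± 0.18). BBS10, another chaperonin-like factor, was level at -0.02 ± 0.15.

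The transition zone, the ring of linkers between microtubules and membrane, had 3 of 12 members called lower and 2 higher, with a median of -0.12 that became 0.13 without wild-type library 1 and -0.34 under library totals. Its summed level was 178 and 170 CPM in wild type and 173, 172 and 165 CPM in the knockout. B9D1, a B9-domain protein of the Meckel syndrome module, had 6.90 and 8.96 CPM in wild type and 13.1, 14.2 and 12.5 CPM in the knockout. It rose by 0.74 ± 0.17, and the call was lost without wild-type library 1. TCTN2, a tectonic of the same module, had 8.80 and 11.0 CPM against 6.30, 6.5 and 6.03 and fell by 0.66 ± 0.17. MKS1, another B9-domain protein, had 26.4 and 23.7 CPM against 16.6, 18 and 15.3 and fell by 0.60 ± 0.13.

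So the called members of the Meckel syndrome module went in both directions. The call of TCTN2 was lost without wild-type library 2 and that of MKS1 without wild-type library 1. TMEM216 (-0.59) was also called lower and NPHP4 (0.56), of the nephronophthisis module, higher, and they lost their calls in 8 and 9 of 15 alternatives. TCTN3, the highest per kb of the zone, had 47.3 and 43.5 CPM in wild type and 52.7, 57.1 and 50.2 CPM in the knockout. It was not called (0.23 ± 0.10), although the groups did not overlap.

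The other transition zone genes that were not called ranged from -0.74 (TMEM231) to 0.82 (B9D2). Both ends rested on a single wild-type library: without wild-type library 1 TMEM231 was at 0.02 and B9D2 at 2.45, where B9D2 was called, and without wild-type library 2 B9D2 was at 0.12. CEP290 (-0.52), RPGRIP1L (0.35), TMEM67 (-0.11) and TCTN1 (-0.14) lay between them. B9D2 had 11 and 2 counts in wild type against 48, 44 and 56 in the knockout, a ratio of 1.74 with an interval of 0.987 to 3.35, and the interval spans equal levels. INPP5E, the phosphatase that sets the lipid identity of the ciliary membrane, had 5.17 and 6.91 CPM in wild type and 3.45, 5.27 and 4.13 CPM in the knockout. It was not called (-0.52 ± 0.26), and its groups overlapped.

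Proteins of these complexes are built in fixed proportions, so 8 pairs of direct binding partners were compared by the ratio of their levels per kb of coding sequence in each library. The pairs were picked for known contacts, with the values known, and no test was made. IFT74 and IFT81 form the tubulin-binding dimer of IFT-B, and IFT74 stood at 2.14 and 2.06 times IFT81 in wild type and at 1.08, 1.01 and 1.02 times in the knockout. DYNC2H1 stood at 0.321 and 0.310 times DYNC2LI1 in wild type and at 0.791, 0.761 and 0.773 times in the knockout. In both pairs the libraries of a genotype were close together, and the levels of the partners were nearer to equal in the knockout. Coding lengths are those of the 1 transcript the table lists for each gene.

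The other pairs did not share a direction. WDR35 stood at 0.311 and 0.334 times its IFT-A partner IFT43 in wild type and at 0.685, 0.607 and 0.579 times in the knockout. That pair too was nearer to equal in the knockout. IFT27 stood at 0.606 and 0.520 times HSPB11 in wild type and at 0.254, 0.373 and 0.301 times in the knockout, so these small partners lay farther apart in the knockout. IFT20 went from 3.29 and 3.51 times TRAF3IP1 to 2.16, 2.20 and 1.81 times, also nearer to equal. Smaller shifts were seen for IFT57 over CLUAP1, at 1.26 and 1.10 against 0.906, 0.781 and 1.02, and for BBS2 over BBS7, at 0.718 and 0.874 against 0.669, 0.635 and 0.570. BBS2 and BBS7 thus lay farther from equal in the knockout. B9D1 over B9D2 was the only one of the 8 whose genotypes overlapped, since B9D2 had only 2 counts in wild-type library 2. Among single genes tested, 38.5% were higher and 37.9% lower in every knockout library than in both wild-type libraries. No such share was computed for other gene pairs, so the lack of overlap is no result about binding partners.

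**Figure D4:**
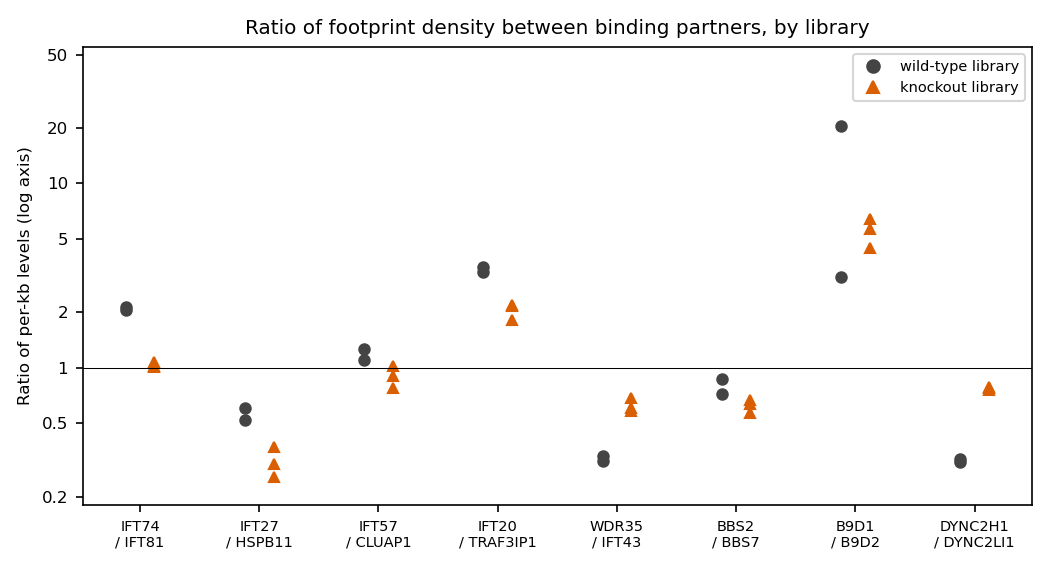
Ratio of levels per kb of coding sequence (log axis) between 8 pairs of binding partners in each wild-type library (grey circles, n = 2) and knockout library (orange triangles, n = 3); the line marks equal levels. IFT74 over IFT81 is 2.14 and 2.06 in wild type and 1.01 to 1.08 in the knockout, and DYNC2H1 over DYNC2LI1 goes from 0.310 and 0.321 to between 0.761 and 0.791.

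Knockout library 2 stood apart in these genes as in the whole table. It was below knockout libraries 1 and 3 in 28 of 48 members (58.3%), against 43.0% of all genes tested. This was seen in IFT74, IFT81, IFT88, HSPB11, IFT20 and CEP290, among others. Without it the median log2 fold change of the members was -0.33, 27 were called lower and 12 higher, while 73.3% of all genes tested were called in that fit.

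Beyond the members, 87 other cilium genes were tested, from lists chosen by function. Of these 16 were called higher (18.4%, against 30.2% of all genes tested) and 25 lower (28.7%, against 29.8%). Together 47.1% were called, against 60.0% of all genes tested, and the median log2 fold change was 0.01. The counts of single lists that follow are to be read against these shares of all genes. The motor list, which holds kinesin-2 and the remaining dynein-2 chains, had 5 of 12 called lower and none higher. KIFAP3, the cargo adaptor of kinesin-2, had 117 and 107 CPM in wild type and 70.3, 55.7 and 65.4 CPM in the knockout, a fall of 0.81 ± 0.11. KIF3A, a motor subunit of the same kinesin, fell by 0.63 ± 0.12. The other BBSome cofactors had 2 of 5 called higher and none lower, led by the ubiquitin ligase TRIM32 (1.33 ± 0.13), with RABL2A, a GTPase that binds IFT-B and has the near-identical copy RABL2B, at 0.39 ± 0.15.

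Further transition zone and inversin compartment genes were called in both directions, 6 higher and 7 lower of 20. NEK8 (1.86 ± 0.46), a kinase of the inversin compartment, and the Joubert syndrome gene AHI1 (-1.27 ± 0.16) had the largest changes in that list. NEK8 had 3 and 4 counts in wild type and 58, 48 and 59 counts in the knockout, so it passed the filter through the knockout libraries, where it was higher. Among 15 genes that carry lipid-modified proteins and vesicles to the cilium, 5 were called higher and 4 lower. RP2 had 39.2 and 42.4 CPM in wild type and 105, 105 and 101 CPM in the knockout, and PDE6D, which binds lipid-modified proteins, fell by 1.05 ± 0.13. Of 15 basal body and distal appendage genes 1 was called higher and 5 lower, with the largest changes in CEP162 (1.40 ± 0.21) and TTBK2 (-1.43 ± 0.18), the kinase that starts cilium growth.

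Of 10 hedgehog genes tested, a pathway that in vertebrates signals through the cilium, 1 was called higher and 2 lower. GLI1, itself a target of the pathway, had 3.10 and 2.05 CPM in wild type and 0.440, 0.124 and 0.372 CPM in the knockout. It fell by 2.91 ± 0.47. Each knockout library was below the filter level of 0.59 CPM, so GLI1 passed through the wild-type libraries only, where it was higher. Behind these levels lie just 12, 2 and 11 knockout counts, against 18 and 11 for the wild type. PTCH1, the hedgehog receptor and likewise a target, rose by 0.93 ± 0.25, and activity of the pathway was not tested. Of the 4 cilium disassembly genes TCHP was called lower (-0.95 ± 0.18). Of 6 tested RFX factors RFX3, known for ciliary genes, fell by 0.50 ± 0.14 and RFX7 rose by 0.59 ± 0.10.

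Coding sequences of the members were longer than those of the whole table, with a median of 1876.5 against 1410 nt, and poorer in G and C, with a median of 45.4% against 52.5%. Length and base composition were not adjusted for, and their part in the differences was not tested. Exons of 16 members overlap another protein-coding gene in the annotation, among them CEP290 (395 bases with C12orf29) and IFT80 (259 bases with SMC4) on the opposite strand, where reads cannot be told apart without strand. BBS1, BBS5, IFT80 and TMEM231 overlap a protein-coding gene on the same strand, by 3311, 998, 1953 and 159 bases, where strand would not tell the reads apart.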

How the data were processed

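The deposited table gave whole-number counts of ribosome footprints per transcript and symbol, without normalization, as read from the file headers. They were taken as footprints from the protocol in the labels, although the molecule field of the labels names polyA RNA. Per the submitters' processing notes, Bowtie and the hg38 build were used, with no version given. Not given in the sources used here are the counting tool, strand, removal of duplicates and treatment of reads with several matches. Library totals were 4887380 to 31557573 counts, and 1 count was worth 0.172 and 0.187 CPM in wild type and 0.0339 to 0.0619 CPM in the knockout. Libraries were grouped by genotype in their titles.

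The counts went into edgeR 4.0.16 under R 4.3.3. After TMM scaling and filterByExpr (min.count 10; 11205 genes kept and 2433 left out), genotype was tested by quasi-likelihood and p-values were adjusted by Benjamini-Hochberg over the genes kept. Errors after ± are approximate SE of the log2 fold change over 2 and 3 libraries. Alternatives were other scalings and filters, DESeq2 1.42.0, voom in limma 3.58.1, leaving out each library, a replicate block, thinning the knockout libraries to 4887380 counts, and, added after seeing the data, summing near-identical libraries. The fit was also run on simulated counts with the same spread in every library, unlike these libraries, so no support is drawn from that run. Transcripts were matched to GENCODE release 29 (13533 rows, all 48 members) for coding lengths. Promoter windows came from RefSeq. The letters after the start were found in a GENCODE transcript on the same strand for 33 of 39 windows and on the other strand for 0.

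Members, lists, pairs and tests were chosen with earlier results of these data known. Members given in full were, in each complex, up to 3 called genes with the largest changes and no overlap between genotypes, the gene with the highest level per kb, and both TTC30 copies. Outside this rule, TTC8 and DYNC2H1 were also given in full after their values were seen. Of the other lists, up to 2 called genes with the largest changes.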

Additional observations from a re-analysis of the deposited data

How the results depend on the processing

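Of the 28 called members 16 kept their call in every alternative that gave a value (13 lower, 3 higher), and 12 lost it at least once, while 14 of the 20 members not called gained a call at least once. The 3 higher were TTC30A, TTC30B and TTC8. Members called higher numbered 7 as reported, 4 under library totals, 4 with near-identical libraries summed (chosen after seeing the data), and 4 to 12 when 1 library was left out, the most without knockout library 2. The share of all genes called was 60.0% as reported, 62.1% under library totals, 40.9% with near-identical libraries summed, and 41.4% to 73.3% when 1 library was left out. Members called lower numbered 21 as reported, 28 under library totals, 15 with near-identical libraries summed, and 15 to 27 when 1 library was left out. The members' median log2 fold change of -0.41 became -0.63 under library totals and -0.50 with a mean count of at least 50, and ranged from -0.45 to -0.33 when 1 library was left out. Under library totals the median of all genes shifted by -0.22, and the members' median minus that of all genes was -0.43, as under the main scaling. The median of the IFT-B core was -0.30 under library totals and -0.52 with a mean count of at least 50. It ranged from -0.16 to 0.03 when 1 library was left out, with 0.01 without wild-type library 2 and 0.03 without knockout library 2, and that of the transition zone from -0.24 to 0.13, the latter without wild-type library 1. The cause was not tested. Where 1 wild-type library remained, it was assumed to vary like the knockout libraries.

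The labels give both genotypes replicate numbers 1 and 2. Deviations of same-numbered libraries did not go together (r = -0.0507 and -0.0493 across genes), so the numbers were not taken to pair the samples. With the replicate block, 22 members were called lower and 6 higher, with a median of -0.45, -0.09 in the IFT-B core and -0.14 in the transition zone. Wild-type depth limits low genes: no count in wild type allows up to 0.517 and 0.560 CPM in the 2 libraries.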
